A study of Triticum aestivum with 24 samples.

Results

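Among the transcripts listed as cut in wheat leaves were 3 coding for calcium sensors, under miR1318, and 2 coding for kinases, under miR1118. These 5 loci were taken from the target table by the name of the miRNA alone, and they make up 5 of its 62 loci and 5 of its 92 cut sites as analysed here. The target list described in the paper is longer than this table, and every share given below is a share of the table. The calcium sensors were TraesCS5B01G480300 (annotated as calmodulin, chromosome 5B) and TraesCS5A01G467800 and TraesCS1D01G444200 (both annotated as calcium-binding family proteins, chromosomes 5A and 1D). The kinases were TraesCS4B01G170700 and TraesCS4D01G172700 on chromosomes 4B and 4D, both under the bare annotation "kinase", which names no kinase class.

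The plants were Triticum aestivum cv Chinese Spring at the boot stage. In the heat groups they had spent 5 days at 37 °C, and leaves were taken from the same plants 0, 1 and 4 days after the treatment ended (DAT). In the control groups the plants stayed under normal growth conditions, with leaves taken at the same time points. The design had 6 groups of 4 libraries, each from the pooled RNA of 18 leaf samples, and all seed came from selfing 1 individual. The table gives 1 value per miRNA and site and no column for a library, hence neither a heat effect nor a spread between replicates could be obtained for any of the 5 loci.

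Calmodulins and their relatives are small proteins that bind calcium through EF-hand loops and, once loaded, change the activity of partner proteins. Kinases add phosphate groups to proteins or to other molecules, and several classes of plant protein kinase are switched on by calcium or by calmodulin. The annotation of the kinases here does not say whether they belong to such a class. In leaves a rise of cytosolic calcium is among the early responses to heat. A plant miRNA bound to Argonaute pairs with a transcript over nearly its whole length, and the enzyme cuts the transcript between the bases facing bases 10 and 11 from the 5′ end of the miRNA. The 3′ fragment therefore starts opposite base 10. Degradome sequencing (parallel analysis of RNA ends, PARE) reads such fragment starts, so that a tag begins at the cut.

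The miRNAs that carry these results are printed 5′ to 3′ as DNA letters, with the seed, bases 2 to 8, in capitals. The seeds differed between the families, and each family was present with 1 miRNA only out of the 73 miRNAs of the table.

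miR1318b-1: aTCAGGAGagatgacaccga
miR1118-550-3p: tCAAAGTTtgtaatgtttgact

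miR1318b-1 had 20 nt and began with A, while miR1118-550-3p had 22 nt and began with T (U in the RNA). In Arabidopsis the first base of a small RNA influences which Argonaute takes it up, and miRNAs of 22 nt are known there to start the production of secondary small RNAs from cut transcripts. Neither property was measured for the 5 loci. For this count each site was taken with its row of most tags and, at equal tags, of the lowest target score. Of the 92 sites, 9 were listed under a miRNA of 20 nt and 2 under one of 22 nt. The 2 were the kinase sites.

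The sites they paired with follow, 5′ to 3′ along the transcript. Capitals mark bases that were not in a Watson-Crick pair with the miRNA, and they show where the 5 sites depart from perfect complementarity.

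TraesCS5B01G480300: tcggtgtcatctctcctgat
TraesCS5A01G467800: tcggtTtcatctctcctgat
TraesCS1D01G444200: CTggtgtcTtctctcctgat
TraesCS4B01G170700: agAcCTGcattGcaaactttga
TraesCS4D01G172700: agAcCTGcattGcaaactttga

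The calmodulin site on 5B was the exact complement of miR1318b-1, with 20 of 20 bases paired. The site on 5A had 19 paired bases and 1 mismatch, opposite base 15 of the miRNA. The site on 1D had 17 paired bases, 1 G:U wobble opposite base 19 and 2 mismatches opposite bases 12 and 20. Relative to the 5B sequence, with position 1 as the first base of the site, the 5A site carried the substitution G6T, and the 1D site carried T1C, C2T and A9T. The 5A and 5B sites were thus identical at 19 of 20 bases, 5B and 1D at 17, and 5A and 1D at 16.

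The kinase sites on 4B and 4D were identical to each other over all 22 bases. Each had 17 bases in Watson-Crick pairs with miR1118-550-3p, 2 wobbles opposite bases 11 and 16, and 3 mismatches opposite bases 17, 18 and 20. In all 5 sites bases 1 to 10 of the miRNA were paired without a break, seed included. Such an unbroken run with at least 1 listed miRNA was found at 32 of the 92 sites (34.8%), with a wobble counted as a break. The departures lay beyond base 10, with 0, 1 and 3 of 10 bases unpaired or wobbled at the calcium sensor sites on 5B, 5A and 1D, and 5 of 12 at the kinase sites.

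**Figure D1:**
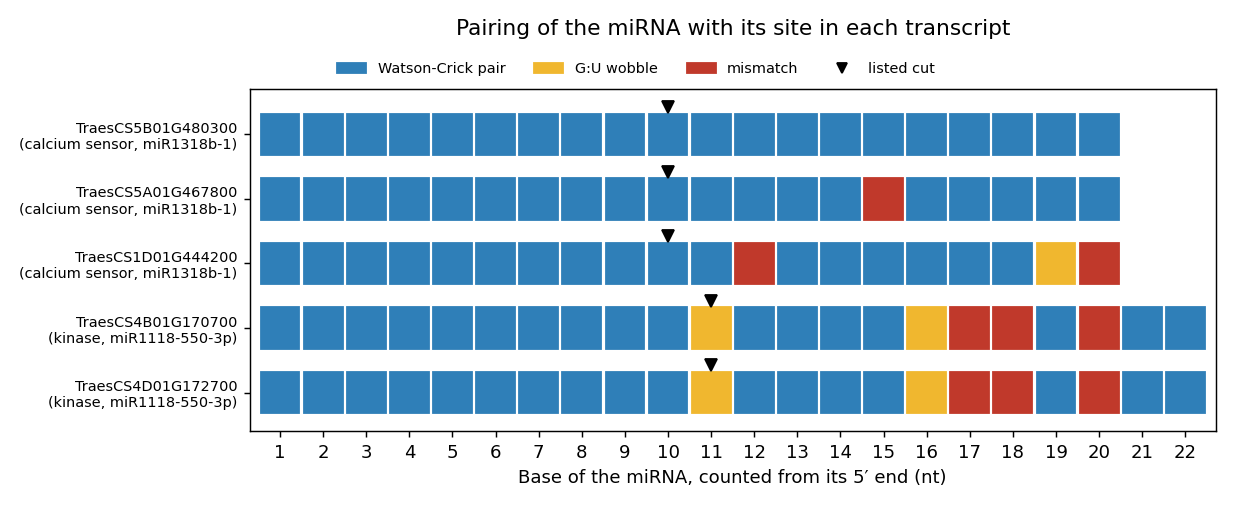
State of each base of the miRNA (x axis, counted from its 5′ end, in nt) at the 5 sites, 1 row per locus with calcium sensors above kinases. Blue is a Watson-Crick pair, yellow a G:U wobble, red a mismatch, and the black triangle marks the base facing the listed cut. Bases 1 to 10 are blue in every row, and the triangle stands over base 10 in the 3 calcium sensor rows and over base 11 in the kinase rows.

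The target score, a penalty that miRferno gives for imperfect pairing and that is 0 for a perfect site, followed these departures. It was 0 at the 5B calmodulin, 1 at the 5A locus, 3.5 at the 1D locus and 5 at both kinases. A score of 0 was given to 4 of the 92 sites (4.35%), which lay in 2 loci, and the calmodulin was 1 of these loci. Scores of 5 or more were given to 20 of the 92 sites (21.7%), both kinase sites among them and 0 of the 3 calcium sensor sites. The median score over all 92 sites was 3.5, which is also the score of the 1D locus. The mean score was 1.5 over the calcium sensor loci and 5 at the kinases, a difference of -3.5. A score is computed from 2 sequences and has no replicate error, so this difference was not tested.

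The free energy of the duplex of miRNA and site, computed here with RNAduplex, put the loci in the same order. It was -37.5 kcal/mol at the 5B calmodulin, -31.3 at the 5A locus, -31.1 at the 1D locus and -20.0 at each kinase. Like the score, it comes from the bases of miRNA and site alone, so the shared order is not separate evidence. No other of the 92 sites had an energy as low as the calmodulin site, although miRNAs of other lengths and base composition cannot reach the same values. As a share of the energy of the same miRNA on its perfect complement, which removes that difference, the values were 100% on 5B, 83.5% on 5A, 82.9% on 1D and 67.1% at the kinases. The median over all 92 sites was 78.2%. Against this median the 3 calcium sensor sites lay above and the kinase sites below. On this scale 60 sites were stronger than the kinase sites, 38 than the 1D site, 34 than the 5A site and 0 than the 5B site.

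The listed cut lay opposite base 10 of miR1318b-1 at all 3 calcium sensor sites and opposite base 11 of miR1118-550-3p at both kinase sites, that is, 1 nt upstream of the position at which Argonaute cleavage places the fragment start. Over all 92 sites at least 1 listed miRNA put the cut opposite base 10 in 46 (50.0%). In the kinase sites the base at the listed cut was itself in a wobble, whereas in the calcium sensor sites it was in a Watson-Crick pair.

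All 3 calcium sensor sites lay close to the start of the coding sequence. They covered positions 46 to 65 on 5B and 5A, with the cut at 56, and positions 43 to 62 on 1D, with the cut at 53. With position 1 taken as the first base of the first codon, each site began on the first base of a codon, number 16 on 5B and 5A and number 15 on 1D, and each cut fell on the second base of a codon. The sites were therefore read in the same frame in the 3 transcripts. A cut within the first 100 nt was listed for 10 of the 92 sites (10.9%), in 7 loci, of which the calcium sensors were 3. The kinase sites covered positions 1295 to 1316, with the cut at 1306, and began on the second base of codon 432. Only the coding sequence was searched by the study, and its full length in each transcript is not given in the sources used here, so a position could not be expressed as a share of the transcript. Genome coordinates were not used here.

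**Figure D2:**
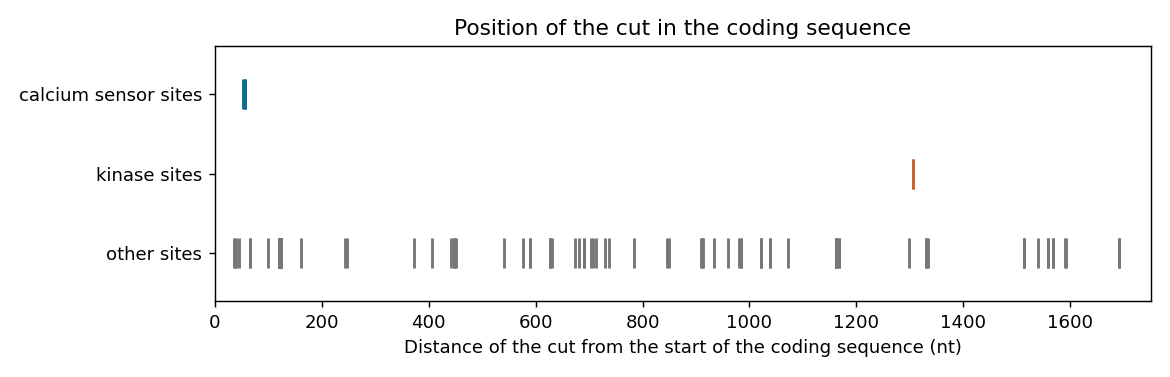
Distance of each listed cut from the start of the coding sequence (x axis, nt), 1 vertical stroke per site, with calcium sensor sites above kinase sites and the other 87 sites at the bottom. The calcium sensor cuts fall together at 53 to 56 nt and the kinase cuts at 1306 nt.

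The abundances were low throughout. At the cut, 6 tags were counted in TraesCS5B01G480300 (exact Poisson 95% interval 2.20 to 13.1), 6 in TraesCS5A01G467800 (the same interval) and 5 in TraesCS1D01G444200 (1.62 to 11.7). The kinases TraesCS4B01G170700 and TraesCS4D01G172700 had 4 tags each (1.09 to 10.2), the lowest count the table holds. The calcium sensors were thus the higher of the 2 sets by count, and all these intervals overlapped. No rows below 4 tags were listed, and neither these intervals nor the tests of the tag ratios allow for this. Over 4 tags, the abundance threshold given in the methods, were found at 60 of the 92 sites (65.2%), at the 3 calcium sensor sites and at neither kinase site, so the kinase rows would not pass that threshold. The median over all sites was 5 tags and the highest 27.

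A second feature was how the tags lay around the cut, in a window that the table names as 10 nt. In the calcium sensors every tag of the window was at the cut, 6 of 6 on 5B and 5A (Wilson 95% interval 61.0 to 100%) and 5 of 5 on 1D (56.6 to 100%). In the kinases 4 of 7 tags were at the cut (57.1%, interval 25.0 to 84.2%), and 3 lay elsewhere in the window. With no rows below 4 tags listed, a window of 7 tags could not have had a share below 57.1%. Neither the intervals of the shares nor the tests of the shares below allow for this. A window with all its tags at the cut was found at 23 of the 92 sites (25.0%), and the median share over all sites was 71.4%. Every site of the 5 was in category 0, the sPARTA class of the most prominent peaks, which 80 of the 92 sites (87.0%) shared.

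The counts did not separate the calcium sensors from the kinases beyond counting error. The kinase rows were identical and were counted once. The 5B and 5A loci, equal in tags and window, were compared separately, and whether the same tags stand behind both was not tested. The ratio of tags to the kinase site was 1.5 for the 5B calmodulin (exact interval 0.356 to 7.23; exact conditional binomial test, two-sided, p = 0.754) and the same for the 5A locus, and it was 1.25 for the 1D locus (0.269 to 6.30; exact test, p = 1). The window share was higher by 42.9 percentage points at each calcium sensor, with p = 0.192 for 5B and 5A and p = 0.205 for 1D (Fisher's exact test, two-sided). Over the 6 comparisons the lowest Benjamini-Hochberg adjusted p of these exact tests was 0.409. The intervals of the count ratios reach from well below 1 to over 6, so these tests do not show that the sets are alike.

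**Figure D3:**
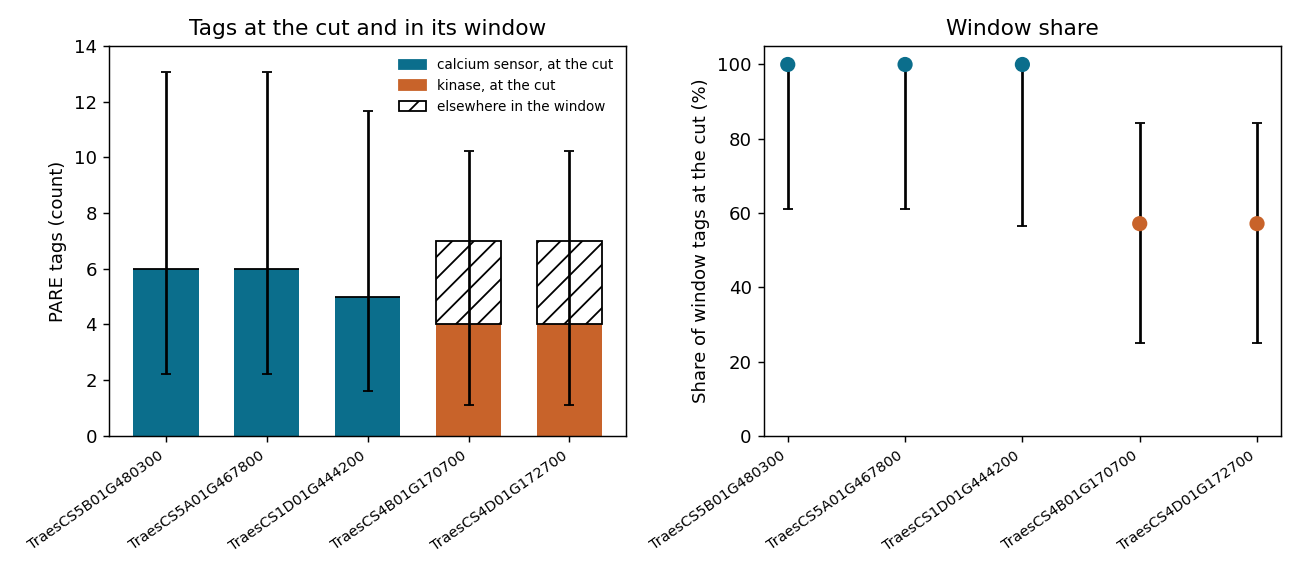
Left, PARE tags (count) at the cut (filled) and elsewhere in the window (hatched) for the 5 loci, calcium sensors left of kinases, with exact Poisson 95% intervals of the count at the cut. Right, share of the window tags at the cut (%), with Wilson 95% intervals. The shares are 100% in the 3 calcium sensors and 57.1% in the kinases, and the intervals overlap.

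The p-value that the table gives each site differed more between the loci than the tags did. It was 0.000446 at the 5B calmodulin, 0.000892 at the 5A locus, 0.00536 at the 1D locus and 0.0248 at both kinases. The 5B and 5A sites had the same tags, window, category and cut position, and their p-values differed by a factor of 2 beside scores of 0 and 1. A p-value under 0.01 was given to 71 of the 92 sites (77.2%), including the 3 calcium sensor sites and neither kinase site. The kinase p-value exceeded those of 89 sites, which places the kinase sites at the weak end of the table.

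Which gene copy the tags came from is uncertain for both sets. The 4B and 4D kinases had identical sites, positions, counts and p-values, so the same tags may stand behind both rows. From the cut to the end of the site the 3 calcium sensors shared the 10 bases ctctcctgat, in which a tag from any of them would begin. The bases that follow are outside the site and were not used here, so it was not tested whether the tags of 1 calcium sensor also match another.

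Seen among all sites, the 5B and 5A calcium sensors combined low penalties with a count just over the median, and the kinases combined a high penalty with the lowest count. No locus outside the 5 had 6 tags in a window of 6, nor 4 in a window of 7. The 5 tags of 5 at the 1D locus were also found at position 690 of TraesCS5B01G215200 (glucan synthase-like 10, score 3) and at the Cu-Zn superoxide dismutases TraesCS2A01G399000 and TraesCS2B01G417000 (score 4.5). This likeness is one of counts and score only.

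**Figure D4:**
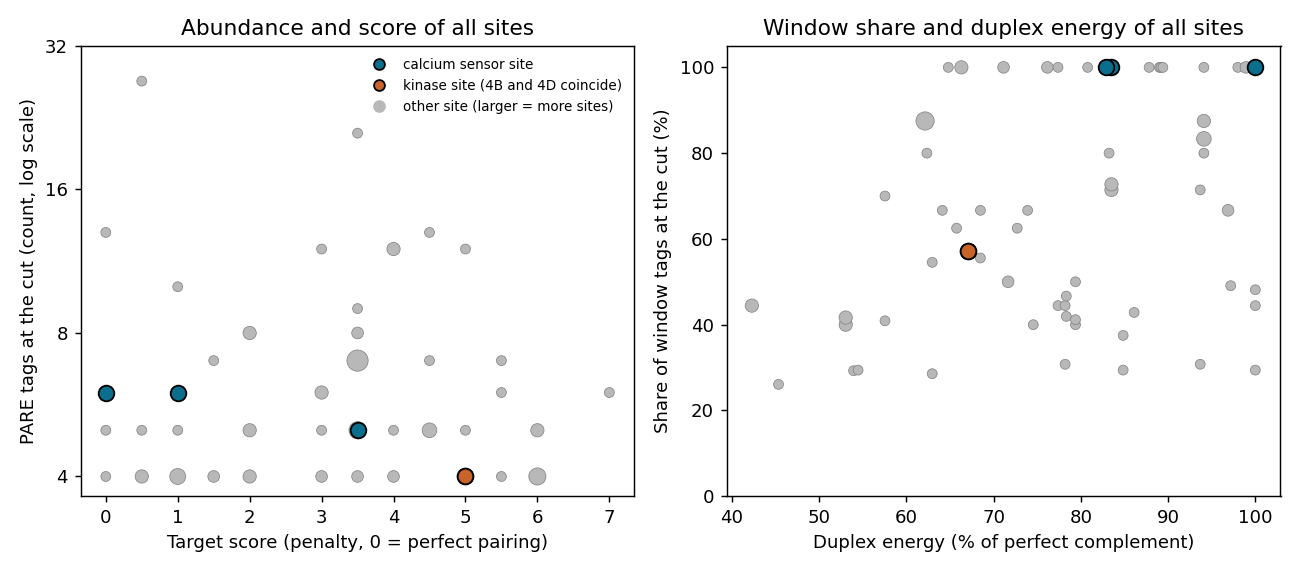
Left, PARE tags at the cut (count, log scale) against the target score, for all 92 sites. Each site has the score of its row of most tags and, at equal tags, of the lowest score. Right, share of window tags at the cut (%) against duplex energy as a percent of that of the perfect complement. Calcium sensor sites are blue, kinase sites orange (both coincide) and other sites grey, larger where several coincide. The calcium sensors lie at 5 and 6 tags and 100% share, the kinases at 4 tags and 57.1%.

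By annotation the calcium sensors were the whole calcium signalling list of the table, 3 of 62 loci, all with over 4 tags. Counted by site over the whole table, 60 of 92 (65.2%) had over 4 tags. The kinase list also held 3 loci, of which 1 had over 4 tags. That locus was TraesCS2A01G360000, a cysteine-rich receptor-like protein kinase under other miRNA families, and its 6 sites had 5 to 21 tags with 26.1 to 70.0% of the window at the cut. No calcium-dependent kinase, calcineurin B-like protein or annexin was matched by the words of the calcium list, which says nothing of genes under other annotations.

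The hairpin precursors of the miRNAs are given by the study as sequences and are shown because they differ in length and in end sequence. The mature miRNA is in capitals.

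miR1318b-1 precursor: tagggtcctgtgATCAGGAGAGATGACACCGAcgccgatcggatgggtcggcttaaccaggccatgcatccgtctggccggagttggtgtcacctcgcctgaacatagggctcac
miR1118-550-3p precursor: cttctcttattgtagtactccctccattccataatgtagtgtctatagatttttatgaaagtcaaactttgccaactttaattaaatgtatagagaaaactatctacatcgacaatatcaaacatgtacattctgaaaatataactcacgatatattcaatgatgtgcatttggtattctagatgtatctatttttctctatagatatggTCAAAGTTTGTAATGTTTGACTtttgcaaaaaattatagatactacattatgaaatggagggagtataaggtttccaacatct

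The miR1318b-1 precursor had 115 nt, with the mature miRNA at bases 13 to 32 of the 5′ arm. It held an inverted repeat of 31 nt in which 25 bases were complementary. The miR1118-550-3p precursor had 293 nt, with the mature miRNA at bases 211 to 232 of the 3′ arm. It held CTCCCTCC near its 5′ end and the reverse complement GGAGGGAG near its 3′ end, within an inverted repeat of 52 nt in which 45 bases were complementary. Ends of this kind are known from Stowaway-type miniature inverted-repeat transposable elements of grasses. The letters CTCCCTCC, searched on both strands, were in 10 of 10 distinct miR1118 precursors and in 0 of 2 miR1318 precursors, against 75 of all 162 distinct precursors of the list (46.3%). Both orientations occurred together in 7 of the 10 and in 39 of the 162 (24.1%). A match of these letters is a description of the sequence and was not tested for a link with the tags at the kinase sites.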

How the data were processed

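Degradome libraries were made from 24 leaf RNA pools. Per the study's methods, adapters were trimmed, short tags were collapsed and mapped with sPARTA to the coding sequences of IWGSC RefSeq v1.0, and miRferno predicted the targets. The authors deposited 1 table of targets for the whole series. Its deposited abundances are tag counts at the cut and in the window, without stated normalization, and its deposited window fraction is their quotient. The deposited score is the miRferno penalty, and the deposited category a score of peak prominence. The deposited p-value was used as given. Rows below 4 tags are absent. Libraries were pooled in equal amounts for sequencing and separated afterwards. The depth of each library, and whether the counts were summed over libraries, are not given in the sources used here, and 0 columns of single libraries were found.

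The RefSeq names given held 0 of the 5 locus IDs. Chromosomes come from the gene IDs. The table writes miRNAs 3′ to 5′. They were reversed, and the mature sequences equalled those in the study's list. A site was a transcript and cut, with the values of its row of most tags and, at equal tags, of the lowest score, then p-value. The lowest score, category and p-value over its miRNAs were used where sites were counted by them. Duplex energies were computed with RNAduplex of ViennaRNA 2.7.2, and tests with scipy 1.17.1 under Python 3.11.15. PCR copies are no independent molecules, so the intervals speak of counting error alone. The count test and the pairing code were tested on simulated data.

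Named loci were all 5 members and up to 3 others per set with the same tags and window tags, nearest in score. Members, lists and this rule were chosen with earlier results of these data known. Alternatives were row means, copies on their own, over 4 tags, a p-value under 0.01, leaving out a calcium sensor, the deposited fraction, and counting the base at the cut from the other end of the site.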

Additional observations from a re-analysis of the deposited data

How the results depend on the processing

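No paired analysis was possible because the target table has no column for a library or a replicate number. For the same reason heat and control were not compared. The 33 values computed under other settings kept their direction and their side of the threshold. Most of these could not have moved, as each of the 5 loci had 1 row and the kinase rows were identical. Leaving out each calcium sensor locus in turn gave a difference in mean tags from the kinases of 1.5 to 2, against 1.67 with all, a difference in score of -4.5 to -2.75, against -3.5, and the same difference in window share, 42.9 percentage points. With the 4B and 4D kinases each counted on its own, the lowest adjusted p over 12 exact comparisons was 0.409. At over 4 tags, and likewise at a p-value under 0.01, 3 calcium sensor sites and 0 kinase sites were left, so no difference could be computed under these filters. Counts of 4 to 6 tags limit every comparison of the 5 loci.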
